A study of Mus musculus with 20 samples.

Results

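The numbered zinc finger protein genes are the mouse genes whose symbol is Zfp followed by digits alone. They were chosen as the probe sets with exactly 1 platform symbol of that form and a mean log2 value of at least 5 over all 20 arrays, leaving out Zfp36, and with the brighter probe set where a gene had several. This gave 134 genes, of 296 such genes on the array and 17771 genes in all. They were thus chosen by their mean log2 level, so levels are given as a description only. The RNA came from eosinophils grown from mouse bone marrow and taken on day 12 of culture. The cultures came from 5 wild-type mice (Dusp5+/+) and 5 mice without Dusp5 (Dusp5-/-), a gene for a nuclear phosphatase that inactivates the MAP kinase ERK. Part of each culture stayed in medium alone, and part received IL-33, an alarm cytokine that activates eosinophils, at 25 ng/ml for 4 hours, so that the 20 arrays, 1 per sample, fell into 4 groups of 5. The comparisons ask how IL-33 changed the genes in each genotype and whether loss of Dusp5 changed their level or their response. The labels do not say how the knockout allele was made, and the cells are a culture product rather than blood or tissue eosinophils.

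Proteins with zinc fingers of the C2H2 kind bind DNA, or in some cases RNA, through short loops that each hold a zinc ion. Many of the numbered genes encode KRAB zinc finger proteins, in which a KRAB domain recruits the corepressor Trim28 (KAP1) and, through it, the histone methyltransferase Setdb1, which silences retroelements and imprinted regions. Others lack KRAB and act as sequence-specific activators, partners of corepressor complexes, RNA-binding proteins or ubiquitin and SUMO ligases. The symbol Zfp thus names a fold and not a pathway. Zfp36, the left-out gene, encodes tristetraprolin, which carries a different kind of finger and destabilises cytokine mRNA.

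The promoters of the 2 members with the largest rise and the 2 with the largest fall after IL-33 in wild-type cells are printed here because the results turn on these genes. They are RefSeq windows on assembly GRCm38.p6, from 250 bases before to 50 bases after the first listed start, all on the plus strand. Zfp719 lies at chr7:43579336-43579635, Zfp263 at chr16:3743849-3744148, Zfp652 at chr11:95748817-95749116 and Zfp949 at chr9:88547770-88548069. Capitals mark exact matches, on either strand, to the ETS core CGGAAGT, the GC box GGGCGG, the CCAAT box CCAAT or the AP-1 element TGANTCA, which were among the 9 motifs searched.
Zfp719: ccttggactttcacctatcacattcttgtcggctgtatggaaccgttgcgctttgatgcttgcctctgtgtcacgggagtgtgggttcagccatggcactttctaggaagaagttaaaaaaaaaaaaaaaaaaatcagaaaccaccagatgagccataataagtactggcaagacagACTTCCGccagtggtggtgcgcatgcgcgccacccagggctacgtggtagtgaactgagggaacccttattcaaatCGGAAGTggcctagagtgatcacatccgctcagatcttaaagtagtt
Zfp263: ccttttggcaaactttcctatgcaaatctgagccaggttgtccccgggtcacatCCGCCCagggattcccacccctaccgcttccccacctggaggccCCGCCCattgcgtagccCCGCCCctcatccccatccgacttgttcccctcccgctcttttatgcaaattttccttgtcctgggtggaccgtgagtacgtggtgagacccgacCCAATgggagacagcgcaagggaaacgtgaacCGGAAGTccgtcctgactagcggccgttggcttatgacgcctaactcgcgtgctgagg
Zfp652: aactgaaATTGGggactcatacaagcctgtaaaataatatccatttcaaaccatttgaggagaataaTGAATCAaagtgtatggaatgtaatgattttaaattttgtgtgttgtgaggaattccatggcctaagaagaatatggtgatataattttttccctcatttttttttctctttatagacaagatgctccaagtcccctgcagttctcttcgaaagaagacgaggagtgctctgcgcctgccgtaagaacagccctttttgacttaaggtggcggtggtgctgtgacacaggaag
Zfp949: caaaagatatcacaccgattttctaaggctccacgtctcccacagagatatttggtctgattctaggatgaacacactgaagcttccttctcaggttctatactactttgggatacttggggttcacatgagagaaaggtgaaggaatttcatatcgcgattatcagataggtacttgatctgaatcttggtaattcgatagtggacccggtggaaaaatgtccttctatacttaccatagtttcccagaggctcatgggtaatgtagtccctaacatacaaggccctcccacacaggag
The window of Zfp719 held 2 ETS matches, 1 on each strand. That of Zfp263 held 1 ETS match, 3 GC boxes and 1 CCAAT box. The window of Zfp652 held 1 AP-1 match and 1 CCAAT box, and the window of Zfp949 held none of the letters searched. A match is a description of these letters, not a site shown to be used.

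Between genes the array does not give levels per length, so the order of members by signal is not an order of transcript number. The members' mean log2 values ran from 5.01 to 9.36 with a median of 6.30, against a median of 7.22 over the 8155 tested genes with a mean of at least 5. Of the 134 members, 55 lay between 5 and 6, 43 between 6 and 7, 24 between 7 and 8, 10 between 8 and 9, and 2 at 9 or more. The 6 brightest were Zfp217 (9.36), a partner of the CoREST and CtBP corepressors known as an oncogene in human breast cancer, Zfp52 (9.24), Zfp384 (8.92), Zfp131 (8.83), Zfp330 (8.79) and Zfp263 (8.76). Zfp750 (5.01), Zfp760 (5.03) and Zfp821 (5.04) lay just above the limit, and Zfp799 (4.99), Zfp267 (4.98) and Zfp3 (4.93) just below it. All 134 members were among the 11766 genes bright enough to be tested, and no member's group mean lay under the 40th percentile of an array. The SD within a group had a median of 0.133 over the members' groups and ran from 0.0223 to 0.630.

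The arrays as a whole set the frame for these genes. Dusp5 read 8.15 in untreated and 9.77 in IL-33-treated wild-type cells, against 4.40 and 4.95 in knockout cells (group means), so the labels matched the targeted gene. Eosinophil markers were bright: Epx averaged 13.3 to 13.5 by group and the log2 of the summed eosinophil list, 6 of 7 genes on the array, ran from 14.8 to 15.3 over all arrays. The summed list of 5 mast cell and basophil markers was also bright, at 13.2 to 13.7, with Cpa3 averaging 12.64 over all arrays. Of the neutrophil list 6 of 7 genes were on the array, summing to 11.5 to 13.0, and of the monocyte and macrophage list 3 of 5, summing to 12.0 to 13.3. The lymphocyte list (4 of 5, 5.36 to 5.73) and the erythroid list (2 of 4, 4.88 to 6.06) were dim, with Ms4a1 and Hba-a1 under the 40th percentile on all 20 arrays. The stromal and endothelial list (4 of 4) ran from 8.45 to 9.15 in untreated and from 9.17 to 9.64 in IL-33-treated arrays, with Col1a1 under the percentile on all 20. Nearly all of this sum was 1 gene, Pecam1, which read 8.31 to 9.08 untreated and 9.09 to 9.59 with IL-33. Col1a2 read 3.51 to 4.43 and Cdh5 2.81 to 3.81, so the list does not show that stromal cells were present. Among the mast cell and basophil markers Ms4a2 rose with IL-33, by 0.65 ± 0.14 in wild-type cells and 0.91 ± 0.14 without Dusp5. In wild-type cells IL-33 lowered 2 of 6 tested eosinophil markers and 2 of 5 of mast cells and basophils. It raised 2 of 3 of monocytes and macrophages (Csf1r and Adgre1), 1 of 2 of lymphocytes (Cd3e) and 1 of 2 of stroma (Pecam1). Cd3e read only 4.09 to 4.68 in wild-type cells (adjusted p = 0.034, limma). In knockout cells IL-33 lowered 2 of 6 eosinophil markers, 3 of 5 of mast cells and basophils, 1 of 3 of monocytes and macrophages (Cd68) and the 1 tested erythroid marker. There it raised 2 of 3 of monocytes and macrophages and 1 of 2 of stroma, the same genes as in wild-type cells. Of all tested genes, 42.7% were called in wild-type and 52.2% in knockout cells. No neutrophil marker was called, but with the mouse as a fixed block 2 of 6 were lower in wild-type and 5 of 6 in knockout cells. That fit called 57.8% and 65.5% of all tested genes. It also gave 3 of 6 eosinophil markers lower in each genotype, and Cd68, Cpa3 and Klf1 lower in wild-type cells. The part of cells other than eosinophils in the members' changes was not tested. In these bulk samples, fewer cells of a type and less RNA per cell cannot be told apart.

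After 4 hours of IL-33, wild-type cells had higher levels of 19 members and lower levels of 50, with 65 not called. Zfp719 rose most, 3.11-fold, followed by Zfp263 at 2.08-fold, while Zfp652 fell 2.19-fold and Zfp949 fell 2.15-fold. These 4 were the called members that changed at least 2-fold. The call rests on an adjusted p below 0.05 (limma, Benjamini-Hochberg over all 11766 genes tested), and changes are log2 differences ± SE with 5 arrays a group. IL-33 changed a large part of all genes: 42.7% of those tested were called, 16.1% higher and 26.7% lower, and 52% of the 8155 genes with a mean of at least 5, of which 18.3% were higher and 33.7% lower. The members' share, 51.5% with 14.2% higher and 37.3% lower, was thus close to that of equally bright genes and is no result about the family. With the mouse as a fixed block, which sets each IL-33 array against the untreated array of its mouse, 60.4% of the members were called, against 69.1% of the equally bright genes. The median change was -0.13 over the members, -0.13 over the 8155 genes and -0.05 over all tested. Untreated and IL-33 arrays did not overlap for 46 members, 14 higher and 32 lower with IL-33, or 34.3%, against 28.3% of all tested genes and 35.9% of the equally bright.

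In knockout cells IL-33 raised 21 members and lowered 65, with 48 not called, and 10 called members changed at least 2-fold. Of all tested genes 52.2% were called, 18.9% higher and 33.2% lower, and of the 8155 brighter ones 62.2%, of which 20.4% were higher and 41.8% lower. The members' share was 64.2%, with 15.7% higher and 48.5% lower, again close to that of equally bright genes, and with the mouse block it was 69.4% against 76.8%. The median change was -0.22 over the members and -0.18 over the brighter genes. Groups did not overlap for 73 members (54.5%), 18 higher and 55 lower, against 38.5% of all tested genes and 48.9% of the brighter ones. The split between rises and falls moved with the scaling of the arrays: after quantile normalization 23 members were higher and 36 lower in wild-type cells, 26 and 42 in knockout cells. Rises then made up 39.0% and 38.2% of the member calls, against 27.5% and 24.4% as deposited, and the median changes became -0.04 and -0.08.

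**Figure D1:**
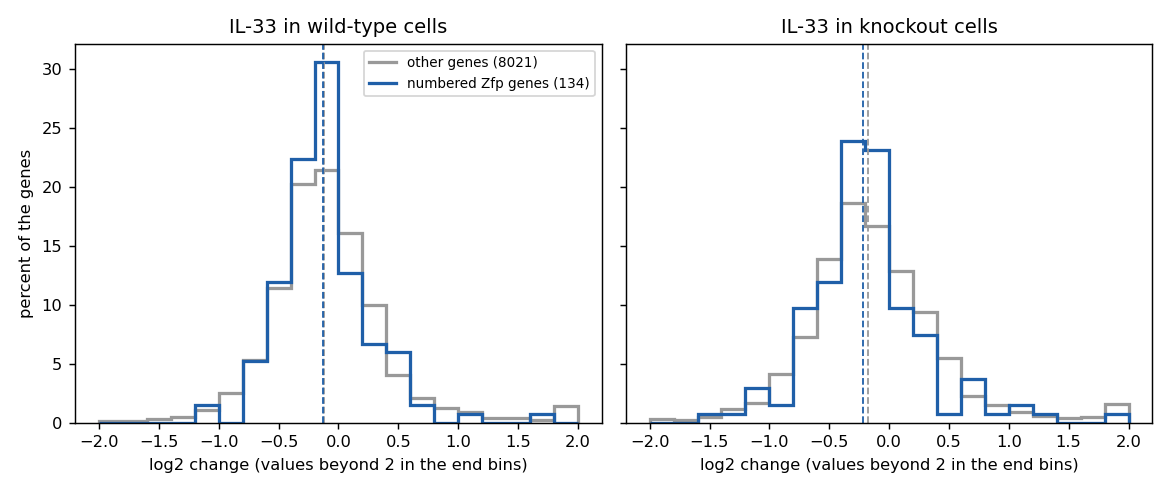
Log2 change with IL-33 (horizontal axis) of the 134 numbered Zfp genes and of the 8021 other tested genes with a mean log2 of at least 5, as percent of the genes in bins of 0.2, in wild-type (left) and knockout cells (right). Dashed lines are the medians, and the 2 outlines largely cover each other. The percent beyond 1 in size was smaller for members than for other genes, by only a small margin in knockout cells.

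Among the members that rose, Zfp719 moved most. Its 5 untreated wild-type arrays read 6.02, 5.88, 5.52, 5.56 and 5.92 on the log2 scale, and the 5 with IL-33 read 7.45, 7.48, 7.29, 7.36 and 7.52. In knockout cells it read 5.82, 5.71, 5.77, 5.84 and 6.07 untreated and 7.67, 7.54, 7.81, 7.66 and 7.68 with IL-33. Every IL-33 array lay above every untreated array in both genotypes. It rose by 1.64 ± 0.09 in wild-type (adjusted p = 3.0e-11) and 1.83 ± 0.09 in knockout cells (adjusted p = 3.7e-12, limma).

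Zfp263 is the mouse counterpart of human ZNF263, a DNA-binding protein with SCAN and KRAB domains. It read 8.08, 8.46, 7.97, 8.05 and 8.04 in untreated wild-type cells and 9.15, 9.38, 9.14, 9.21 and 8.99 with IL-33. The knockout arrays read 7.99, 8.32, 8.12, 8.42 and 8.37 untreated and 9.41, 9.41, 9.44, 9.62 and 9.69 with IL-33. The groups did not overlap in either genotype, although untreated wild-type array 2 stood apart from the other 4. The rise was 1.06 ± 0.10 and 1.27 ± 0.10. Its probe set carries the suffix for probes shared between transcripts, as do those of 8 other members with an s or x suffix, so part of the signal can come from a related transcript.

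Zfp608, which represses the Rag recombinase genes in mouse thymocytes, read 6.25, 6.36, 6.63, 6.20 and 6.23 in untreated wild-type cells and 7.26, 7.17, 7.03, 7.04 and 6.90 with IL-33. In knockout cells it read 6.11, 6.28, 6.23, 6.17 and 6.53, then 7.17, 7.14, 7.23, 7.54 and 7.73. The groups were apart in both genotypes, with rises of 0.74 ± 0.12 and 1.10 ± 0.12. Zfp703, a transcriptional corepressor known as an oncogene in human breast cancer, read 7.16, 7.05, 7.33, 7.07 and 7.10 untreated and 7.93, 7.69, 8.06, 7.80 and 7.89 with IL-33 in wild-type cells. Its knockout arrays read 7.20, 6.95, 7.06, 6.98 and 7.09, then 7.93, 7.65, 8.10, 8.22 and 8.41, again without overlap. It rose by 0.73 ± 0.11 and 1.00 ± 0.11. Zfp704, another member of the same role list, had lower group means with IL-33 but was not called in either genotype, at -0.28 ± 0.14 (adjusted p = 0.12) and -0.24 ± 0.14 (adjusted p = 0.15). With the mouse as a fixed block it was called lower in both (adjusted p = 0.013 and 0.023, limma).

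Smaller rises were called in both genotypes for Zfp597 (0.55 in wild-type and 0.75 in knockout cells), Zfp800 (0.54 and 0.85), Zfp131 (0.54 and 0.70), Zfp275 (0.52 and 0.61), Zfp52 (0.50 and 0.37), Zfp120 (0.48 and 0.65) and Zfp62 (0.37 and 0.69). Zfp131, a BTB-domain transcription factor, was the tightest of these: it read 8.31 to 8.63 untreated and 8.93 to 9.17 with IL-33 in wild-type cells, and 8.38 to 8.56 and 9.18 to 9.24 in knockout cells. Zfp800 was less clearly apart: its wild-type arrays read 7.08 to 7.42 untreated and 7.48 to 8.27 with IL-33, so the groups were apart by a narrow gap.

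**Figure D2:**
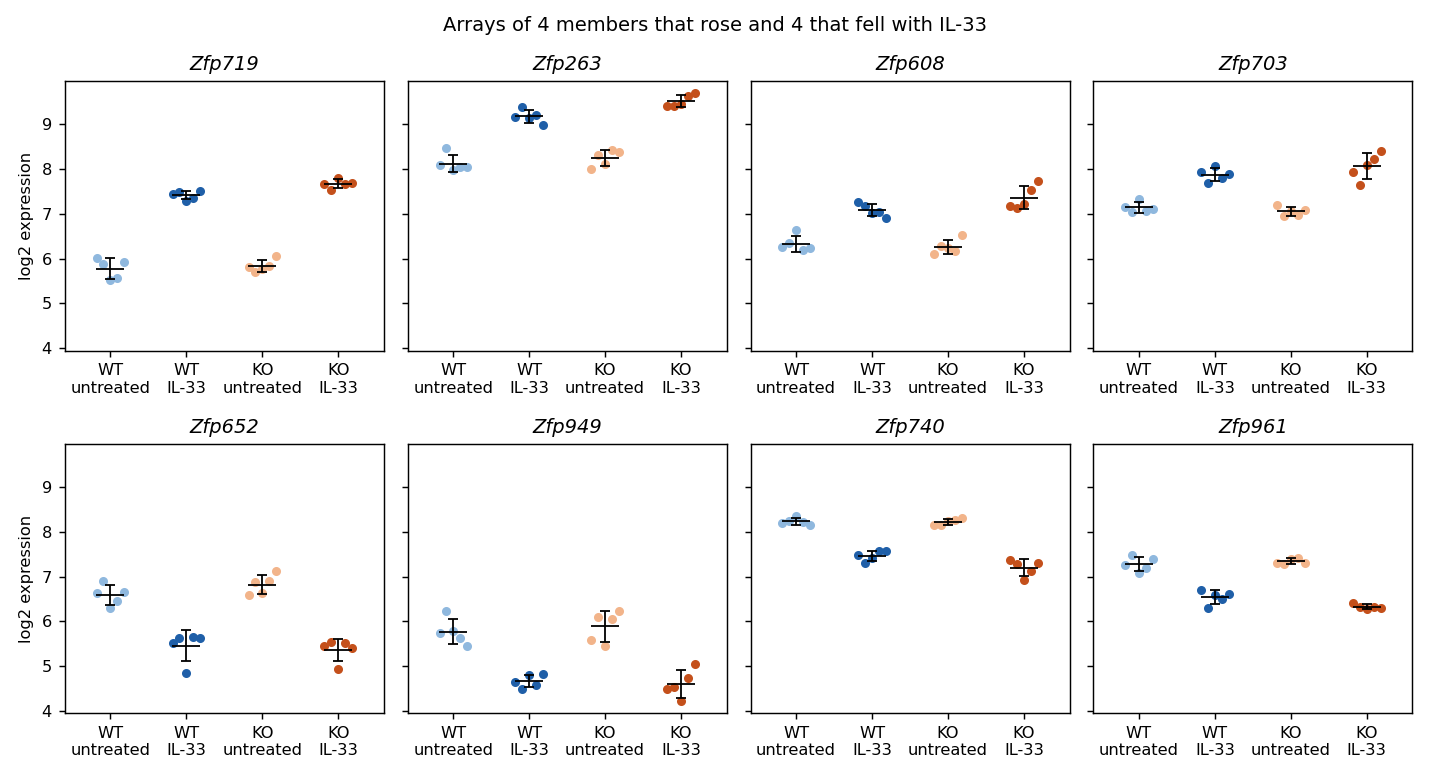
Log2 expression (vertical axis, the same in all panels) of 4 members that rose and 4 that fell with IL-33, in wild-type (WT) and knockout (KO) cells; each point is 1 array, the wide mark is the mean and the bar the SD, 5 arrays a group. In each panel the untreated and IL-33 points of a genotype do not overlap, and the pattern is alike in the 2 genotypes.

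Among the members that fell, Zfp652, which in human cells represses transcription together with the corepressor CBFA2T3, moved most. It read 6.64, 6.90, 6.29, 6.46 and 6.65 in untreated wild-type cells and 5.52, 5.64, 4.85, 5.66 and 5.63 with IL-33. The knockout arrays read 6.59, 6.88, 6.63, 6.89 and 7.12 untreated and 5.44, 5.54, 4.93, 5.51 and 5.40 with IL-33. No IL-33 array reached an untreated one, and array 3 was the lowest of its IL-33 group in both genotypes. The fall was -1.13 ± 0.16 (adjusted p = 7.6e-06) in wild-type and -1.45 ± 0.16 (adjusted p = 1.8e-07) in knockout cells.

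Zfp949 read 5.75, 6.23, 5.79, 5.63 and 5.46 in untreated wild-type cells and 4.65, 4.50, 4.80, 4.57 and 4.83 with IL-33. In knockout cells it read 5.59, 6.09, 5.46, 6.05 and 6.24, then 4.49, 4.54, 4.22, 4.74 and 5.04. The groups were apart in both, with falls of -1.10 ± 0.16 and -1.28 ± 0.16. For Zfp740 the wild-type arrays read 8.19, 8.24, 8.34, 8.22 and 8.16 untreated and 7.49, 7.30, 7.41, 7.56 and 7.56 with IL-33. The knockout arrays read 8.16, 8.15, 8.23, 8.27 and 8.31, then 7.38, 7.27, 6.92, 7.13 and 7.30. It fell by -0.77 ± 0.08 and -1.03 ± 0.08, with no overlap in either genotype. Zfp821 (-0.77 and -1.04), Zfp707 (-0.74 and -0.77), Zfp763 (-0.72 and -1.02), Zfp39 (-0.66 and -0.91), Zfp963 (-0.59 and -0.55), Zfp775 (-0.58 and -0.87), Zfp637 (-0.58 and -0.79), Zfp101 (-0.52 and -0.74) and Zfp157 (-0.50 and -0.80) were lower in both genotypes.

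Zfp367 fell by -0.71 ± 0.19 and -0.67 ± 0.19, but its untreated wild-type arrays spread from 6.61 to 7.66 and overlapped the IL-33 arrays at 6.10 to 6.83. Array 2 was the lowest in both wild-type groups for Zfp367, as it was for Uhrf1, a cofactor of DNA methylation in dividing cells, which read 7.42 on untreated wild-type array 2 and 8.91 to 9.26 on the other 4. Whether the 2 genes share a source of spread was not tested.

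Of 6 tested genes with a known role in silencing imprints or retroelements, 4 were members. Zfp961, a repressor of retroviral sequences, read 7.25, 7.48, 7.08, 7.20 and 7.39 in untreated wild-type cells and 6.71, 6.29, 6.58, 6.51 and 6.61 with IL-33. Its knockout arrays read 7.31, 7.27, 7.40, 7.42 and 7.30, then 6.41, 6.33, 6.27, 6.33 and 6.29. The arrays with IL-33 were all below the untreated ones, and it fell by -0.74 ± 0.08 and -1.01 ± 0.08. Zfp809, which recognises a primer binding site of murine leukaemia viruses, was called lower by a small margin, at -0.22 ± 0.09 (adjusted p = 0.044) and -0.23 ± 0.09 (adjusted p = 0.030). In wild-type cells its groups overlapped, and the call was lost under several alternatives, among them quantile normalization (-0.14, adjusted p = 0.16). Zfp932, another silencer of endogenous retroviruses, was called in knockout cells at -0.43 ± 0.13 (adjusted p = 0.010), while its wild-type change was -0.26 ± 0.13 (adjusted p = 0.13, and 0.0027 with the mouse block). Zfp445, a guardian of imprinted methylation, was not called in either, at -0.09 ± 0.09 and -0.12 ± 0.09.

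Of the 12 tested genes of the Trim28 corepressor machinery, 3 were lower and none higher in wild-type cells, while 3 were lower and 1 higher in knockout cells. These shares, 25.0% and 33.3%, compare with 42.7% and 52.2% of all tested genes, and no list was tested as a whole. Their median changes were -0.10 and -0.07. Trim28 itself went from 9.23 to 8.83 in wild-type group means (-0.40 ± 0.14, adjusted p = 0.024) and from 8.93 to 8.46 in knockout cells (-0.47 ± 0.14). Atf7ip, the partner of Setdb1, fell by -0.49 ± 0.09 and -0.63 ± 0.09, and the chromatin remodeller Chd3 by -0.32 ± 0.11 and -0.28 ± 0.11. Setdb1 was not called, at -0.11 ± 0.07 (adjusted p = 0.22) and -0.13 ± 0.07 (adjusted p = 0.13), nor was Cbx5, at -0.38 ± 0.27 and -0.54 ± 0.27. Cbx5, which encodes heterochromatin protein HP1 alpha, varied between mice, and with the mouse as a fixed block it was called lower in both genotypes (adjusted p = 0.00017 and 6.2e-06, limma). Setdb1 in knockout cells had an adjusted p of 0.065 with the fixed and 0.040 with a random block. The wild-type calls of Trim28 and Chd3 did not survive leaving out some single arrays, with adjusted p up to 0.080 and 0.065. Of 13 tested genes of the HUSH complex and heterochromatin, 2 were higher and 4 lower in wild-type cells, 1 and 6 in knockout cells, shares of 46.2% and 53.8% that are near those of all tested genes. Dnmt1, the maintenance DNA methyltransferase, fell by -0.78 ± 0.16 and -0.98 ± 0.16, Atrx by -0.61 ± 0.17 and -0.58 ± 0.17, and Pphln1, the periphilin subunit of HUSH, rose by 0.56 ± 0.09 and 0.67 ± 0.09. Uhrf1 was called in knockout cells (-1.08 ± 0.41, adjusted p = 0.032), with -0.83 ± 0.41 (adjusted p = 0.11, and 4.0e-06 with the mouse block) in wild-type cells.

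Members that act with transcription complexes moved in both directions. Of 10 tested transcription regulators of broad expression, 2 were higher (Zfp263 and Zfp131) and 4 lower in wild-type cells, and 3 were higher and 4 lower in knockout cells. So 6 of 10 and 7 of 10 were called, against 52% and 62.2% of the brighter genes. Zfp217 fell by -0.29 ± 0.11 (adjusted p = 0.034) and -0.44 ± 0.11, and its wild-type arrays read 9.23 to 9.75 untreated and 8.97 to 9.37 with IL-33, so the groups overlapped. Zfp281, a regulator of pluripotency genes in mouse embryonic stem cells, fell by -0.33 ± 0.10 and -0.36 ± 0.10. Zfp516, an activator of the brown fat gene Ucp1, fell in wild-type cells (-0.58 ± 0.18) and had -0.42 ± 0.18 (adjusted p = 0.059, and 0.0018 with the mouse block) in knockout cells. Zfp335, a cofactor of histone H3 lysine methyltransferases, rose in knockout cells (0.26 ± 0.07) with 0.15 ± 0.07 (adjusted p = 0.10, and 0.022 with the mouse block) in wild-type cells. Zfp592, in human cells a partner of the chromatin reader ZMYND8, read 6.44 to 6.79 untreated and 5.91 to 6.20 with IL-33 in wild-type cells, a fall of -0.54 ± 0.10 without overlap. It fell by -0.40 ± 0.10 in knockout cells, where the groups, 6.42 to 6.86 and 5.96 to 6.40, were apart by a narrow gap.

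Both ligases of the family that were called rose. Zfp91, a ubiquitin ligase linked to the noncanonical NF-kB pathway, went from 7.80 to 8.05 untreated up to 8.14 to 8.32 with IL-33 in wild-type cells, with no overlap. It rose by 0.31 ± 0.07 and 0.33 ± 0.07. Zfp451, a SUMO ligase, rose by 0.38 ± 0.10 and 0.53 ± 0.10, although its wild-type groups overlapped. The third, Zfp598, in human cells a ubiquitin ligase for collided ribosomes, was not called, at 0.00 ± 0.06 and 0.06 ± 0.06. Of members that bind RNA, Zfp346, which prefers double-stranded RNA, fell from 7.22 to 7.36 untreated to 6.81 to 7.09 with IL-33 in wild-type cells, without overlap, a change of -0.33 ± 0.07. It fell by -0.40 ± 0.07 in knockout cells. Zfp326, in human cells a subunit of a complex that links transcript elongation and splicing, and Zfp638 were not called in either genotype, with wild-type changes of -0.30 ± 0.16 (adjusted p = 0.14) and -0.11 ± 0.10 (adjusted p = 0.42). With the mouse block Zfp326 was called lower in wild-type cells (adjusted p = 0.00088).

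The response of the members was close in the 2 genotypes. Of the 134, 18 rose and 47 fell in both, and none was called in opposite directions. In wild-type cells alone Zfp770 was called higher and Zfp341, Zfp516 and Zfp579 lower. In knockout cells alone 3 were called higher (Zfp335, Zfp575 and Zfp869) and 18 lower, and 44 were called in neither. The 44 had wild-type changes from -0.45 to 0.24. With the mouse as a fixed block, 75 were called in both, 6 in wild-type cells alone, 18 in knockout cells alone and 35 in neither. Pearson's r between the 2 changes over the 134 members was 0.962, against 0.977 over the 8155 brighter genes. This is a correlation across genes of arrays processed together, and genes are not independent replicates. Among the 65 called the same way in both, the change was larger in size in knockout cells for 56 (86.2%), as it was for 3220 of 4004 brighter genes (80.4%). The median change of the members per mouse was -0.149 ± 0.0494 (SD, n = 5) over wild-type mice, from -0.209 to -0.0821, and -0.216 ± 0.0666 in knockout mice, from -0.322 to -0.152. Over the brighter genes it was -0.127 ± 0.0349 and -0.173 ± 0.0329, so a lower mean in knockout mice was not particular to the members. The members' ranges overlapped between the genotypes, and this difference of medians was not tested.

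The difference itself was tested as the interaction of genotype and IL-33. No gene of the 11766 was called, 0% in all and 0% among the members, by limma with 16 residual degrees of freedom, and 8 members had an unadjusted p under 0.05. With the mouse as a random block 26 genes were called, none of them a member, and with the mouse as a fixed block 0 genes were called. The 134 interaction differences ran from -0.39 to 0.35, with a median SE of 0.133. The smallest p belonged to Zfp438, which changed by 0.00 ± 0.06 in wild-type and -0.26 ± 0.06 in knockout cells, a difference of -0.26 ± 0.09 (adjusted p = 0.79). Zfp157 (-0.30 ± 0.10), Zfp512 (-0.26 ± 0.10) and Zfp672 (-0.24 ± 0.10) came next. A p that misses the threshold does not show that the responses were equal.

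**Figure D3:**
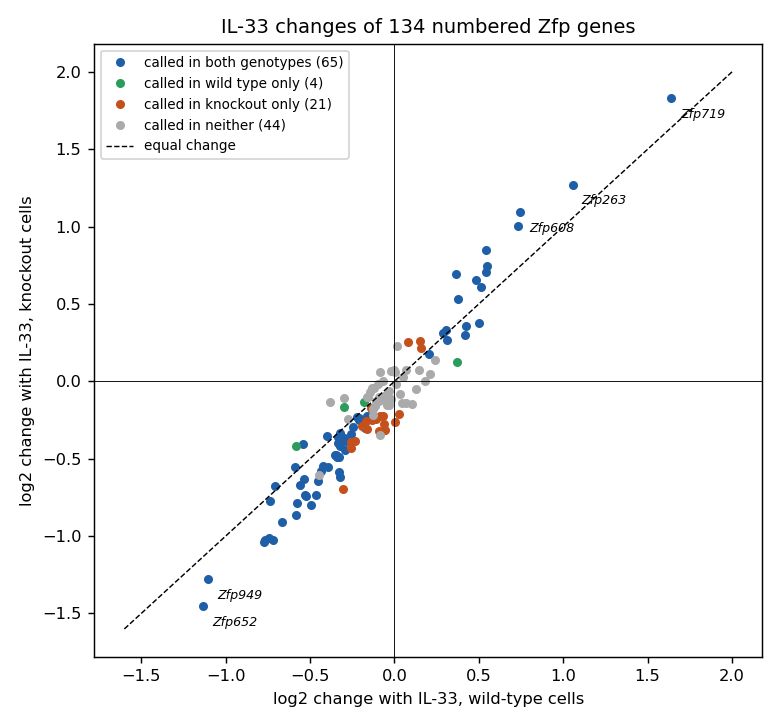
Log2 change with IL-33 of each of the 134 members in wild-type (horizontal) and knockout cells (vertical); each point is 1 gene, coloured by the genotypes in which it was called, and the dashed line marks equal change. Zfp719 and Zfp263 lie at the upper right and Zfp652 and Zfp949 at the lower left, and the 65 members called in both follow the line, most of them on its steeper side.

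In untreated cells no member differed between genotypes, where 0.0255% of all tested genes (3 genes) and 0.0245% of the brighter ones were called. By limma, 8 members had an unadjusted p under 0.05, and the smallest adjusted p was 0.38. The knockout minus wild-type differences ran from -0.42 to 0.28 with a median of 0.03 and a median SE of 0.094. Zfp677 had 0.28 ± 0.08, Zfp438 0.14 ± 0.06, Zfp629 -0.34 ± 0.13 and Zfp326 -0.36 ± 0.16. The arrays did not overlap for Zfp438, higher in knockout cells at 5.64 to 5.71 against 5.46 to 5.62, and for Zfp251, lower in them, 2 members or 1.49% against 1.1% of all tested genes and 1.08% of the brighter ones.

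After IL-33, 1 member was called, against 2.21% of all tested genes and 2.88% of the brighter ones. Zfp763 was lower in knockout cells, at 4.55, 4.32, 4.34, 4.47 and 4.60 against 4.95, 4.56, 5.26, 4.95 and 5.28 in wild-type cells. Only wild-type array 2 reached the knockout range. The difference was -0.55 ± 0.12 (adjusted p = 0.025), with -0.24 ± 0.12 (adjusted p = 0.38) in untreated cells. The call was lost when only the 2 groups compared were fitted (adjusted p = 0.096) and when wild-type IL-33 array 1, 3, 4 or 5 or knockout IL-33 array 2, 3 or 4 was left out (adjusted p up to 0.081). Without wild-type IL-33 array 2, 4 members were called higher and 9 lower, or 9.70%, while 14.1% of all tested genes were called in that setting.

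Next by p came Zfp74 (-0.32 ± 0.09, adjusted p = 0.055), Zfp35 (-0.65 ± 0.17, adjusted p = 0.056, and 0.030 with the mouse as a random block) and Zfp775 (-0.38 ± 0.11, adjusted p = 0.061), and 31 members had an unadjusted p under 0.05. Zfp35 read 8.16 to 8.87 in wild-type and 7.78 to 8.34 in knockout cells with IL-33, so the ranges overlapped. For 3 members (2.24%, against 3.32% of all tested genes and 3.96% of the brighter ones) the IL-33 arrays of the genotypes did not overlap, all higher in knockout cells: Zfp719 (0.25 ± 0.09, adjusted p = 0.12), Zfp263 (0.34 ± 0.10, adjusted p = 0.075, and 0.049 with the random block) and Zfp131 (0.14 ± 0.06, adjusted p = 0.18).

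Genes of this family often stand side by side in the genome. On assembly GRCm38.p6 the members lay on 19 chromosomes, 26 of them on chromosome 7, 19 on chromosome 17, 13 on chromosome 8 and 12 on chromosome 13. Joining members whose starts were at most 1 Mb apart gave 12 groups of at least 3 members, which held 54 members. The genes named from these groups were chosen after their values were seen. On chromosome 6, Zfp282, Zfp212, Zfp777, Zfp746 and Zfp775 all fell in both genotypes, from -0.58 to -0.29 in wild-type and from -0.87 to -0.39 in knockout cells. Zfp775 stood apart from the rest of the group, with 8 coding genes between it and Zfp746. Zfp746 is also known as PARIS, a repressor of the gene of the coactivator PGC-1alpha. It went from 8.24 to 8.73 untreated to 7.78 to 8.28 with IL-33 in wild-type cells. On chromosome 16 Zfp263 and Zfp597, with 2 coding genes between them, both rose.

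Other groups were mixed in their calls. Of 9 neighbours from Zfp677 to Zfp758 on chromosome 17, 1 rose and 2 fell in wild-type cells, the rise being that of Zfp52. Of 6 from Zfp871 to Zfp414 on the same chromosome 4 fell, Zfp763 and Zfp101 among them, and none rose. On chromosome 7, 4 of 6 from Zfp553 to Zfp646 fell in wild-type cells, and 5 of the 6 fell without Dusp5. All 6 changes were below 0, from -0.54 to -0.04 in wild-type and from -0.63 to -0.15 in knockout cells. Changes below 0 were common: 63.3% and 64.8% of the 8155 brighter genes, and 71.6% and 74.6% of the members, had one. Between 1 and 10 coding genes stood between one member and the next there. Of the 8155 brighter genes, 33.7% were called lower in wild-type and 41.8% in knockout cells. Neighbours can share regulation or, on the array, probe sequence, and neither was tested.

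**Figure D4:**
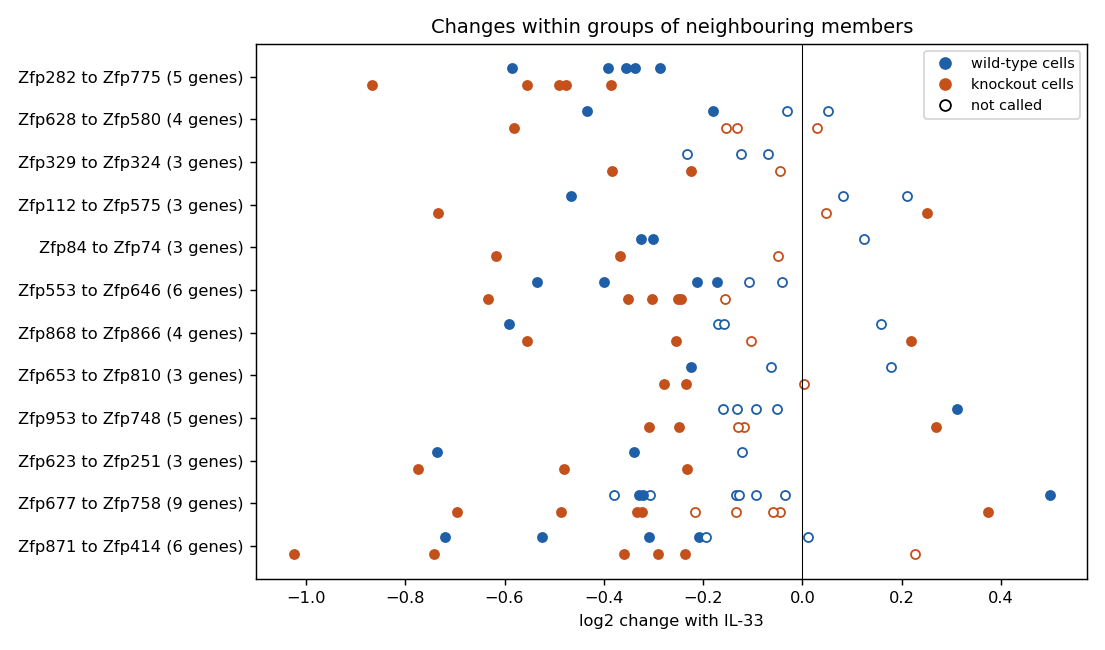
Log2 change with IL-33 (horizontal axis) of the members in the 12 groups of neighbouring genes (vertical axis, named by first and last gene, with the number of members); filled points were called, open points were not. All 5 members from Zfp282 to Zfp775 lie left of 0 and are called in both genotypes, while most other groups hold called and uncalled members.

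In the promoter windows of the 113 members that have one, 55.8% held CCAAT, against 39.0% of 6686 tested genes with a mean of at least 5 and 37.9% of all 27025 genes of the table. The ETS core stood in 20.4%, against 14.5% and 6.59%. The GC box stood in 54.0%, fewer than the 66.0% of the brighter genes and more than the 35.9% of all. The YY1 element AAGATGGC (5.31%, 5.16% and 2.88%), the E-box CACGTG (7.08%, 10.9% and 7.24%), the EGR element GCGTGGG (4.42%, 8.38% and 4.92%) and TGANTCA (5.31%, 4.88% and 7.93%) stood in few windows of each set. So did the NF-kB consensus (3.54%, 5.37% and 4.35%) and the CArG box (2.65%, 1.29% and 1.57%). Of the members called in wild-type cells, the NF-kB consensus stood in the windows of 2 of 16 that rose and 0 of 43 that fell, and the ETS core in 2 and 4. The CCAAT box stood in 11 and 26, the GC box in 9 and 24, the YY1 element in 1 and 4 and the EGR element in 1 and 2. TGANTCA stood in 0 and 2, the E-box in 0 and 4 and the CArG box in 0 and 0. These shares were not tested.

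As a comparison, the 22 Zbtb genes with a mean of at least 5, which encode BTB zinc finger transcription factors, had 5 called higher and 11 lower in wild-type cells and 5 and 10 in knockout cells, with median changes of -0.18 and -0.16. These were 72.7% and 68.2% of the 22, against 52% and 62.2% of all genes with such a mean. Of the 162 numbered Zfp genes below the level limit, 79 were bright enough on some arrays to be tested. With IL-33, 8 of these were higher and 16 lower in wild-type cells (30.4%), and 9 and 25 in knockout cells (43.0%). Of all tested genes, most of them brighter, 42.7% and 52.2% were called. The rises can include genes, such as Zfp819, that passed the filter mainly through their IL-33 arrays. Zfp36 itself was bright, with a mean of 10.03, and was not called with IL-33, at 0.09 ± 0.12 and 0.10 ± 0.12. For Zfp644 the probe sets disagreed: in knockout cells the brighter one was not called, while the second rose by 0.33 ± 0.11 (adjusted p = 0.016). For Zfp982 neither probe set was called, while with the mouse as a fixed block the brighter one was called lower in both genotypes (-0.45 and -0.61, adjusted p = 0.0070 and 0.00073, limma).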

How the data were processed

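One-colour Affymetrix arrays were summarised by the authors as deposited log2 expression values, 1 table holding 20630 probe sets of 20 samples. That the scale is log2 follows from the range of the values. Background correction and normalization: not given in the sources used here. No further scaling was applied. Names came from the platform annotation; all 134 members were matched by gene number to RefSeq (GRCm38.p6). Groups came from the treatment and genotype labels; the titles of the 10 IL-33 samples name Dusp5 where the others name the treatment, and the series text and the treatment label give IL-33.

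A gene was tested where it exceeded the array's 40th percentile (3.56 to 3.68) on at least 5 arrays. A limma 3.58.1 model in R 4.3.3 gave each of the 4 groups its own mean over all 20 arrays. Benjamini-Hochberg adjustment was over 11766 genes, with calls at 0.05. The fit was also run on simulated arrays drawn independently of each other, so that run does not cover arrays that share a mouse. The members, gene lists and tests were chosen with earlier results of these data known. Named were the largest called changes, the smallest p where few were called, the brightest members, those at the level limit and up to 4 per role list. Protein classes were not used here. Deviations from the group means correlated at 0.262 to 0.783 between the untreated and the IL-33 array that share a number, all 10 best with their own, and the series text names 5 mice per genotype, so a shared number was read as a shared mouse. Alternatives were quantile normalization, other filters and level limits, 2-group fits, a trended robust fit, the mouse as a block and leaving out arrays.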

Additional observations from a re-analysis of the deposited data

Results flagged for a closer look

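In 6 of 204 groups of 5 arrays examined, over 51 named members, 1 array lay far from the other 4; chance gives about 1 in 20 such groups. Untreated wild-type array 2 was the highest for Zfp263 (8.46) and Zfp704 (7.77) and the lowest for Zfp275 (7.84). Wild-type IL-33 array 2 was the lowest for Zfp821 (4.17). For Zfp652, array 3 was the lowest of its IL-33 group in wild-type (4.85) and in knockout cells (4.93).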

How the results depend on the processing

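With the mouse as a fixed replicate block, 22 members were higher and 59 lower with IL-33 in wild-type cells, 21 and 72 in knockout cells; with a random block the counts were 23 and 62, 21 and 75, within 1.5 times those without it. Of the named results, 6 gained a call with each block and none lost one. After quantile normalization the median changes were -0.0421 and -0.0832, and 42 members were lower in knockout cells. With a level limit of 6, 27 were lower with IL-33 in wild-type cells and 37 without Dusp5. That limit leaves out the 55 members with a mean between 5 and 6, so these counts cannot be set directly against the 50 and 65 of 134. The genotype comparison after IL-33 moved most. Members called lower numbered 6 with the 60th percentile filter, 0 with only the 2 groups, 3 with the random block, 2 and 0 with level limits of 4 and 6, 10 without wild-type mouse 2 in both treatments (added after seeing the data), and 0 to 9 leaving out 1 array. Members called higher numbered 1 with the random block, 4 without that mouse and 0 to 4 leaving out 1 array; 4 and 9 came without wild-type IL-33 array 2, 2 and 6 without knockout IL-33 array 1, 1 and 3 without untreated wild-type array 2, and 0 and 3 without untreated wild-type array 3. After IL-33, the 60th percentile filter gave calls for 5.34% of all tested genes against 4.55% of members, and the random block 4.37% against 2.99%. Leaving out knockout IL-33 array 1 gave 8.92% against 5.97%, and leaving out wild-type mouse 2 gave 17.8% against 10.4%. In untreated cells 1 member (0.746%) was called higher without that mouse, against 5.53% of all tested genes, which was 0.0255% with every mouse. Signs turned for values near 0: Zfp445 in wild-type cells (0.0235 after quantile normalization) and Zfp598 (-0.0184 without wild-type mouse 2, and from -0.0403 to 0.0441 leaving out 1 array). Of 79 named results, 63 kept direction and side of the threshold in every setting tried; the causes were not tested. The number of arrays limits the precision, and the table gives no background level.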

Other observations

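Zfp819, which passed the filter on dim genes mainly through its IL-33 arrays, is a numbered gene below the level limit (mean 4.53) and linked to retroelement silencing in mouse. Its untreated wild-type arrays read 3.14, 3.34, 3.14, 2.88 and 3.30, all 5 under their array's 40th percentile, and the IL-33 arrays 5.90, 5.62, 5.42, 5.83 and 5.70. In knockout cells it read 3.55, 3.68, 3.37, 3.37 and 3.69 untreated, 3 of them under the percentile, and 5.81, 5.61, 5.33, 6.14 and 5.82 with IL-33. The groups were far apart in both, and no test is given, since the gene had to be high with IL-33 to be examined. With dim arrays set to the percentile, the gene was at least 4.30-fold higher with IL-33 in wild-type and at least 4.34-fold higher in knockout cells. Zfp593, also below the limit (mean 4.86), rose by 0.53 ± 0.09 and 0.55 ± 0.09. Both were named after their values were seen.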
